A study of Mus musculus with 4 samples.

Results

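The genes described here encode the structural proteins of the extracellular matrix and the integrin receptors that bind them. They were chosen by symbol alone: collagen and laminin chains, integrin alpha and beta subunits with a number in their symbol, Itgav, Itgal, Itgam and Itgax, and Fn1, Nid1, Nid2, Hspg2, Agrn and Vtn. 86 genes of the 49997 in the count table met this rule, of which 44 were collagens, 11 laminin chains, 6 other matrix proteins and 25 integrin subunits.

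A basement membrane is a thin sheet of matrix that forms under epithelia, and in the early embryo it appears below the pluripotent epiblast. Its laminins are trimers of 1 alpha, 1 beta and 1 gamma chain, its collagen IV is a network of trimers, and nidogens, perlecan (Hspg2) and agrin (Agrn) tie the networks together. Fibrillar collagens form the ropes of connective tissue, and fibronectin (Fn1) forms fibrils on which cells adhere. An integrin is a pair of 1 alpha and 1 beta subunit that spans the cell membrane. The beta1 subunit pairs with many alphas, and alpha5 with beta1 is the main fibronectin receptor, whereas alpha6 with beta1 binds laminin.

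RNA was sequenced from E14 mouse embryonic stem cells (ESCs), which per the study's methods carried a tdTomato transgene driven by the MERVL promoter, a reporter of the 2-cell-like (2C-like) state. Both groups had been infected with a lentivirus and kept under puromycin as stable lines, with a scrambled hairpin (shScramble) in one group and a hairpin against Ythdf2 (shYthdf2) in the other. Ythdf2 encodes a reader of N6-methyladenosine that promotes mRNA decay. Each group had 2 libraries, described in the methods as independent biological replicates, and all cells grew with leukemia inhibitory factor on gelatin, which is denatured collagen, with no feeder layer named. The labels do not say which hairpin the shYthdf2 lines carried.

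The libraries held 31113006 to 36422510 counted reads, and the 86 genes took between 0.643% and 0.714% of them. Levels are given as CPM, the read count after scaling every library to one common total. Ythdf2 itself had 93.4 and 87.6 CPM in shScramble and 31.8 and 30.2 CPM in shYthdf2, a log2 fold change of -1.55 (SE 0.11, adjusted p = 0.00069). Summed markers of pluripotent cells stood at 7420 and 7290 CPM in shScramble and 6990 and 6520 CPM in shYthdf2, without overlap, and 1 of 10 was called lower (Tdgf1), while an unadjusted p under 0.05 was reached by 3, all lower. Of 10 fibroblast and mesenchyme markers, Twist2, Dcn and Fap had 0 reads in every library, and Prrx1 had at most 2. The list summed to 25.3 and 31.1 CPM in shScramble and 18.8 and 26.1 CPM in shYthdf2. Nearly all of this came from Thy1 (7.78 to 15.2 CPM), Pdgfrb (3.335 to 10.66 CPM) and Twist1 (4.67 to 7.28 CPM). These were the 3 tested markers, and 0 were called (none at an unadjusted p under 0.05). Cells of primitive and parietal endoderm secrete basement membrane in the embryo. Their markers summed to 89.2 and 79.5 CPM in shScramble and 90.7 and 109 CPM in shYthdf2. Most of this sum was Lrp2, at 72.3 and 63.9 CPM in shScramble and 69.3 and 95.6 CPM in shYthdf2. Gata4 had 0.88 to 1.05 CPM and Gata6 2.21 to 4.94 CPM. Of the endoderm markers, 0 of 10 tested were called (0 at an unadjusted p under 0.05). Markers of 2C-like cells summed to 31.7 and 46 CPM in shScramble and 61.3 and 168 CPM in shYthdf2, and 2 of 9 tested were called higher (Usp17la and Zscan4a, with 7 higher and 0 lower at an unadjusted p under 0.05). Those of trophectoderm summed to 155 and 164 against 152 and 120 CPM. Of 9 tested, 1 was called lower (Esx1, with 1 higher and 4 lower at an unadjusted p under 0.05). The sum mixed opposite directions, as Tfap2c had 67.7 and 77.9 against 103 and 79.5 CPM. Esx1 had 49.1 and 52.1 against 19.7 and 17.8 CPM, while Cdx2, Elf5, Hand1 and Krt7 had at most 0.67 CPM. Over all genes tested, 3.91% were called and 20.8% had an unadjusted p under 0.05. What part any of these cells had in the values below was not tested. In bulk RNA, fewer cells of a type and less RNA per cell cannot be told apart.

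Most of the 86 genes were scarce in these cells. No read was counted for Vtn (vitronectin), Itgb2l, Itgb6 or Itgb8 in any library, which allows up to 3 reads, or 0.083 to 0.095 CPM. These 4 were among 16 genes with under 10 reads in every library. 64 genes passed the filter on low counts and were tested, 30 of them collagens, 11 laminins, 5 other matrix genes and 18 integrins. A gene can pass this filter through one group alone. The 22 genes left out include the collagen VI chains Col6a1 and Col6a2, Col3a1, the basement membrane chains Col4a3, Col4a4 and Col4a6, and the leukocyte integrins Itgb2 and Itgax. Col8a2, the most abundant of the short-chain network collagens, had 8 and 24 reads in shScramble and 5 and 6 in shYthdf2.

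Levels were compared between genes as CPM per kilobase of exon, here called per-length units. Only 29 of the 86 genes had a mean of at least 1 such unit and 15 a mean of at least 10, and those 15 comprised 2 of 44 collagens, 3 of 11 laminins, 5 of 6 other matrix genes and 5 of 25 integrins. Fn1 stood first in every library, with levels of 207, 227, 228 and 246 per-length units in shScramble replicates 1 and 2 and shYthdf2 replicates 1 and 2. It made up between 29.4% and 32.7% of the summed level of all 61 matrix genes. Nid2 (nidogen-2) followed at 109 to 119 units, then Lamc1 at 87.2 to 94.9 and Itgb1 at 64.2 to 77.6, and these ranges did not overlap. Further down the order neighbours were no longer separate. Nid1 at 52 to 68.2 units overlapped with Itgb1 above it and with Agrn below it (49.1 to 59.4), and Col18a1, Hspg2, Itga5 and Itga6 overlapped in part between 28 and 43.8 units.

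**Figure D1:**
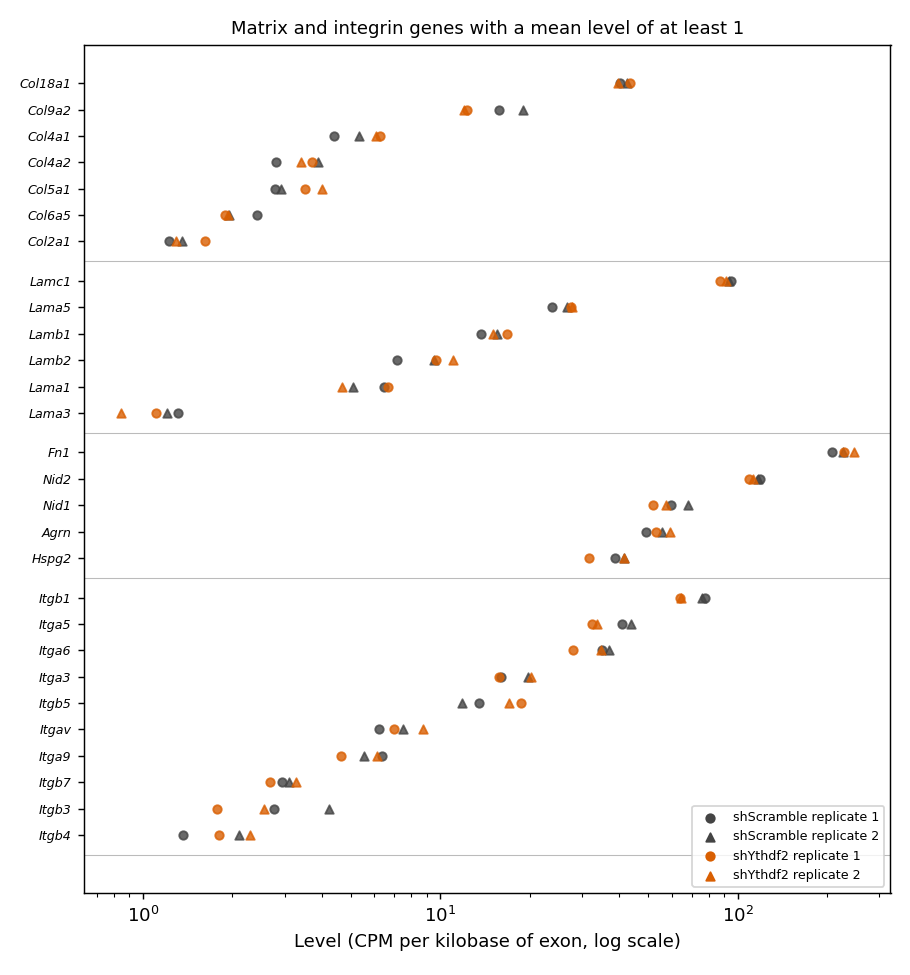
Level of genes with a mean of at least 1 in each of the 4 libraries, as CPM per kilobase of exon on a log axis. Grey symbols are shScramble and orange symbols shYthdf2, circles are replicate 1 and triangles replicate 2, and lines separate collagens, laminins, other matrix genes and integrins. Fn1 lies farthest to the right, at 207 to 246.

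Across the 64 tested genes, 1 was higher in shYthdf2 and 0 were lower at an adjusted p under 0.05 in edgeR's quasi-likelihood test, a share of 1.56%. Of all 18341 genes tested, 3.91% were called, 2.43% higher and 1.49% lower. At an unadjusted p under 0.05, 8 of the 64 genes were higher and 9 lower, 26.6% together against 20.8% of all genes (11% higher and 9.8% lower). In 36 of them (17 higher, 19 lower, 56.2%) the groups did not overlap, and the same held for 51.8% of all genes (26.2% higher and 25.5% lower). The median log2 fold change was 0.06 over the 64 genes and 0 to 2 decimals over all genes. Of the 28 genes with a mean of at least 10 CPM, edgeR called 0, against 5.38% of all genes at that level. An unadjusted p under 0.05 was reached by 7 of them (25%, against 20.8% of all genes tested at any level). DESeq2 called 4 of the 51 genes to which it gave an adjusted p (7.84%, against 9.77% of all genes), Col5a2 and Itgb5 higher and Itga5 and Col9a2 lower. Asking DESeq2 instead for an unadjusted p of at most 0.05 and a change of 1 log2 unit or more, 3 of 82 genes with a read passed (3.66%, against 2.88% of all genes), namely Col5a2, Itga1 and Col6a4, all higher.

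**Figure D2:**
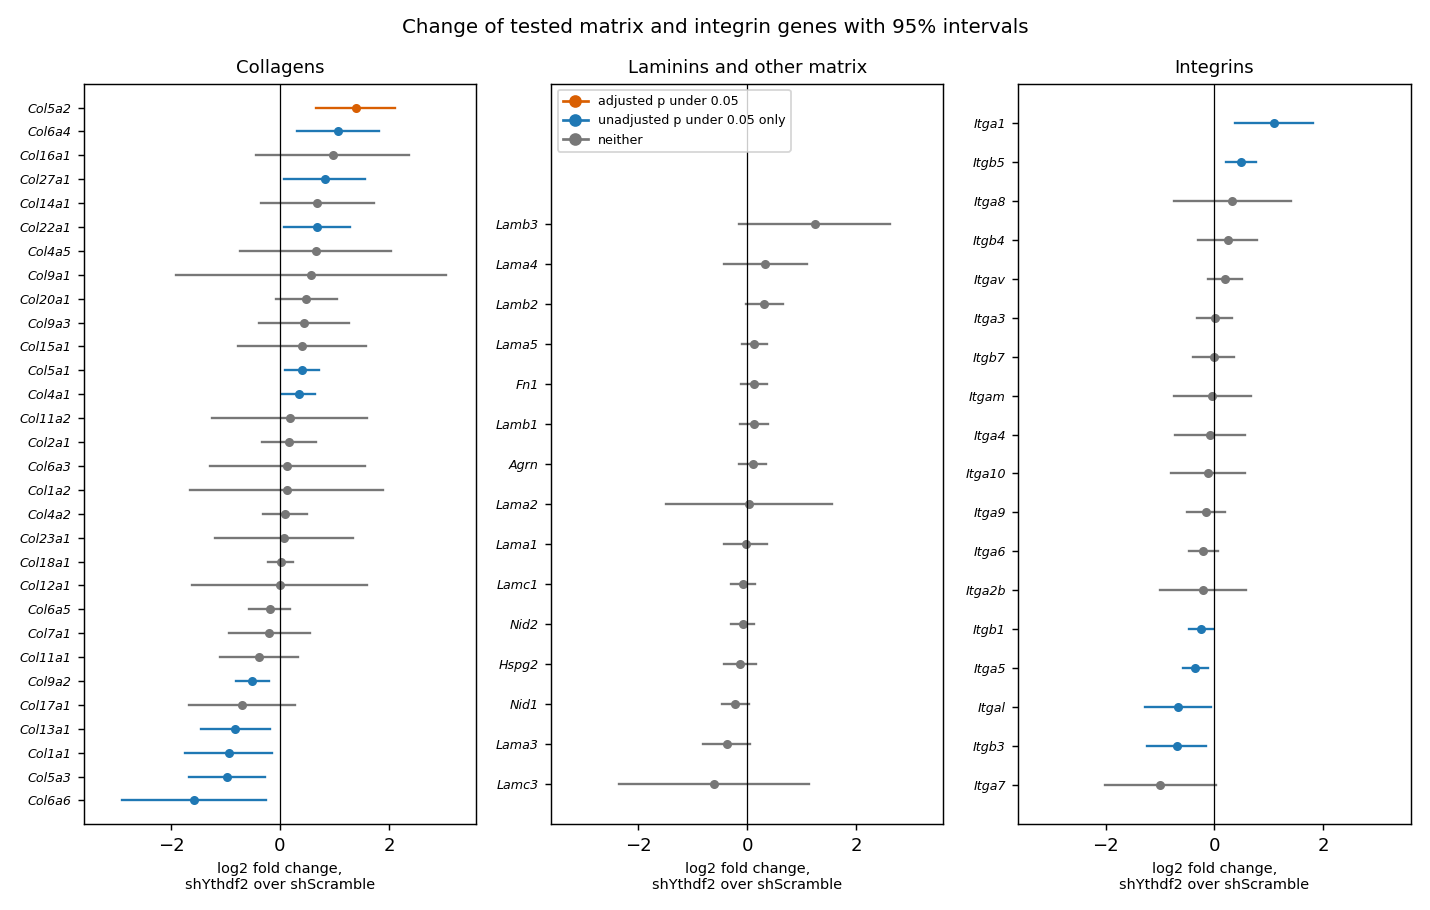
Log2 fold change (shYthdf2 over shScramble) of tested genes from the edgeR fit, with the 95% interval as a bar, in panels for collagens, for laminins with other matrix genes, and for integrins. Orange marks an adjusted p under 0.05, blue an unadjusted p under 0.05 only, and grey neither. Col5a2, at 1.39, is the single orange point.

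Among the laminins the gamma chains were the most abundant. The summed level of gamma chains was 102 and 100.5 per-length units in shScramble and 95.3 and 99.8 in shYthdf2, which was 2.66 to 3.21 times the alpha sum and 3.57 to 4.89 times the beta sum in the same library. Lamc1, the gamma chain shared by most laminins, accounted for 91.5% to 92.9% of the gamma sum. Among alpha chains Lama5, the chain of the laminins best known for supporting pluripotent cells, accounted for 74.3% to 82.4%, and Lama1, the chain of the first embryonic laminin, for 13.9% to 20.2%. Among beta chains Lamb1 held 57.2% to 65.4% and Lamb2 34.1% to 42.1%.

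No laminin chain of 11 was called in either direction, where 3.91% of all genes were. At an unadjusted p under 0.05 the count was also 0, against 20.8% of all genes. Lama5 had 276 and 311 CPM in shScramble and 320 and 323 CPM in shYthdf2, so the groups did not overlap, and its log2 fold change was 0.13 (SE 0.10, 95% interval -0.10 to 0.36, adjusted p = 0.53). Lamc1 had 723 and 711 against 664 and 699 CPM, a log2 fold change of -0.07 (interval -0.29 to 0.15, adjusted p = 0.73). For these abundant chains the intervals leave out changes of 1 log2 unit in either direction. Lamb1, at 80.2 and 91 against 98.5 and 87.8 CPM, overlapped between groups (log2 fold change 0.12, interval -0.14 to 0.38). Lama1 varied more between replicates than between groups, with 64.8 and 51 CPM in shScramble and 66.8 and 46.9 CPM in shYthdf2 (log2 fold change -0.03, interval -0.42 to 0.37). Lamb2 had 40.3 and 53.6 against 54.5 and 62.2 CPM (0.32, interval -0.02 to 0.65, adjusted p = 0.27). Chains known from epithelial laminin were also measured. Lama3 had a log2 fold change of -0.37 (adjusted p = 0.31), and Lamb3 one of 1.24 (interval -0.15 to 2.62, adjusted p = 0.30) from 18 and 6 reads against 29 and 29.

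Collagen IV was represented by its common chains. Col4a1 had 33.1 and 40.2 CPM in shScramble and 47.2 and 45.9 CPM in shYthdf2. The groups did not overlap, and the log2 fold change was 0.34 (SE 0.13, interval 0.04 to 0.64, adjusted p = 0.18). Col4a2 had 18.1 and 25 against 23.9 and 22 CPM, with overlapping groups and a log2 fold change of 0.09 (interval -0.31 to 0.50, adjusted p = 0.82). The chains join in a trimer of 2 alpha1 and 1 alpha2, and the ratio of their per-length levels was 1.57 and 1.38 in shScramble and 1.69 and 1.79 in shYthdf2. Both genes lie head to head on chromosome 8 (mm10), Col4a1 at 11198423 to 11312889 on the minus strand and Col4a2 at 11312805 to 11449287 on the plus strand, with starts 84 bases apart. Of the exon bases of Col4a1, 14.3% were shared with genes on the opposite strand, and reads over more than one gene were not counted. The remaining pairs of collagen IV genes are arranged in the same way, with starts 113 bases apart for Col4a3 and Col4a4 and 1275 for Col4a5 and Col4a6. Those 4 genes had at most 19 reads in any library.

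Of the proteins that tie basement membrane networks together, 0 of 4 were called and 0 had an unadjusted p under 0.05. The shares over all genes were 3.91% and 20.8%. Nid2 had 579 and 570 CPM in shScramble and 534 and 549 CPM in shYthdf2, a log2 fold change of -0.09 (interval -0.30 to 0.13, adjusted p = 0.67). Nid1 had 361 and 412 against 314 and 348 CPM (-0.22, interval -0.47 to 0.03, adjusted p = 0.30). In both nidogens the groups did not overlap, with shScramble on the higher side. Agrn, at 578 and 656 against 627 and 699 CPM, overlapped between groups (log2 fold change 0.10, adjusted p = 0.65). Hspg2 had 552 and 593 CPM in shScramble and 454 and 595 CPM in shYthdf2, with shYthdf2 replicate 1 lowest, and a log2 fold change of -0.13 (interval -0.42 to 0.17, adjusted p = 0.64). Without that library the log2 fold change was 0.05.

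Fn1 had 1757 and 1921 CPM in shScramble and 1928 and 2084 CPM in shYthdf2. The groups stood apart by a margin much smaller than the gap within either group, and the log2 fold change was 0.13 (SE 0.10, interval -0.11 to 0.36, adjusted p = 0.55).

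The fibrillar collagens held the one called gene. Col5a2, a chain of collagen V, which regulates the diameter of collagen fibrils, had 94 and 68 reads in shScramble and 270 and 165 in shYthdf2, or 2.61 and 2.16 against 7.90 and 4.61 CPM. Both shYthdf2 libraries lay above both shScramble libraries, and replicate 1 was the higher of the pair. The mean rose from 2.38 CPM ± 0.32 to 6.25 CPM ± 2.32 (SD over 2 libraries). Its log2 fold change was 1.39 (SE 0.33, interval 0.66 to 2.11, adjusted p = 0.047). Without shYthdf2 replicate 1 the log2 fold change was 0.95 and the adjusted p 0.18, and the call was also lost with upper quartile scaling (0.056), library totals (0.05 when rounded, not under the threshold) and limma-voom (0.071). Col5a2 lies on chromosome 1 (mm10, 45374331 to 45503282, minus strand), and 24624 bases separate it from Col3a1, another fibrillar collagen, which had 6 and 0 reads in shScramble and 3 and 0 in shYthdf2.

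The collagen V chains did not share a direction. Col5a1, the chain present in most collagen V, had 23.7 and 24.9 CPM in shScramble and 30 and 34.2 CPM in shYthdf2, with no overlap (log2 fold change 0.40, SE 0.14, adjusted p = 0.14). Col5a3 had 3.36 and 4.51 against 1.87 and 2.12 CPM, also without overlap but with shYthdf2 on the lower side (-0.97, SE 0.31, adjusted p = 0.12). On the per-length scale Col5a1 made up 70.4% to 79.8% of the sum of these chains. The level of Col5a2 was 0.775 and 0.478 times that of Col5a3 in shScramble and 4.21 and 2.17 times in shYthdf2. The summed level of collagen V was 3.69 and 3.93 per-length units in shScramble and 5 and 5.04 in shYthdf2, well under the 39.6 to 43.5 units of Col18a1.

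Of the other fibrillar chains, Col1a1, the main chain of bone and skin collagen, had 3.47 and 2.29 CPM in shScramble and 1.38 and 1.62 CPM in shYthdf2 (log2 fold change -0.94, adjusted p = 0.17), and its partner Col1a2 had 5 to 13 reads. Col27a1, a cartilage collagen, had 1.69 and 1.59 against 3.31 and 2.49 CPM (0.82, adjusted p = 0.20). Neither pair of groups overlapped. Over the 9 fibrillar collagens tested, 6 had positive and 3 negative log2 fold changes, with a median of 0.17. Of all genes tested, 9213 were positive and 9128 negative.

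Col18a1 was the most abundant collagen and made up 50.8% to 54.1% of the summed collagen level. It encodes a basement membrane collagen whose C-terminal part is endostatin. Its values of 292 and 308 CPM in shScramble and 316 and 288 CPM in shYthdf2 overlapped, with a log2 fold change of 0.01 (SE 0.10, interval -0.22 to 0.24, adjusted p = 0.97) that took the opposite sign with upper quartile scaling. Col9a2 came second, with 15.3% to 22.8% of the collagen sum. Col9a2 encodes a chain of collagen IX, which coats cartilage fibrils, and lies on chromosome 4 (mm10, 121039566 to 121055325, plus strand). It had 43.2 and 52.2 CPM in shScramble and 33.8 and 33.1 CPM in shYthdf2, without overlap (log2 fold change -0.51, SE 0.13, interval -0.81 to -0.21, adjusted p = 0.068, and 0.0184 in DESeq2). The other chains of its trimer were far lower, Col9a3 with 62 to 116 reads and Col9a1 with 0 to 12.

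In the collagen VI family the neighbouring genes Col6a6, Col6a5 and Col6a4 on chromosome 9 differed in sign. Col6a5, the most abundant of the family, had 22.6 and 18.2 CPM in shScramble and 17.7 and 18.2 CPM in shYthdf2 (log2 fold change -0.19, interval -0.56 to 0.19, adjusted p = 0.58). Col6a4 had 2.31 and 2.22 against 6.08 and 3.41 CPM (1.07, SE 0.34, adjusted p = 0.11). As for Col5a2, shYthdf2 replicate 1 was the higher library, and without it the log2 fold change of Col6a4 was 0.59. Col6a6 had 24 and 36 reads against 11 and 10 (-1.57, SE 0.59, adjusted p = 0.17). These log2 fold changes were not tested against each other. Col13a1, a transmembrane collagen of cell junctions, had 6.44 and 9.14 CPM in shScramble and 3.57 and 5.23 CPM in shYthdf2 (-0.82, SE 0.29, adjusted p = 0.14). Col22a1, a collagen of muscle-tendon junctions, had 4.89 and 3.43 against 6.11 and 7.27 CPM (0.68, adjusted p = 0.19). The groups did not overlap in either gene.

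**Figure D3:**
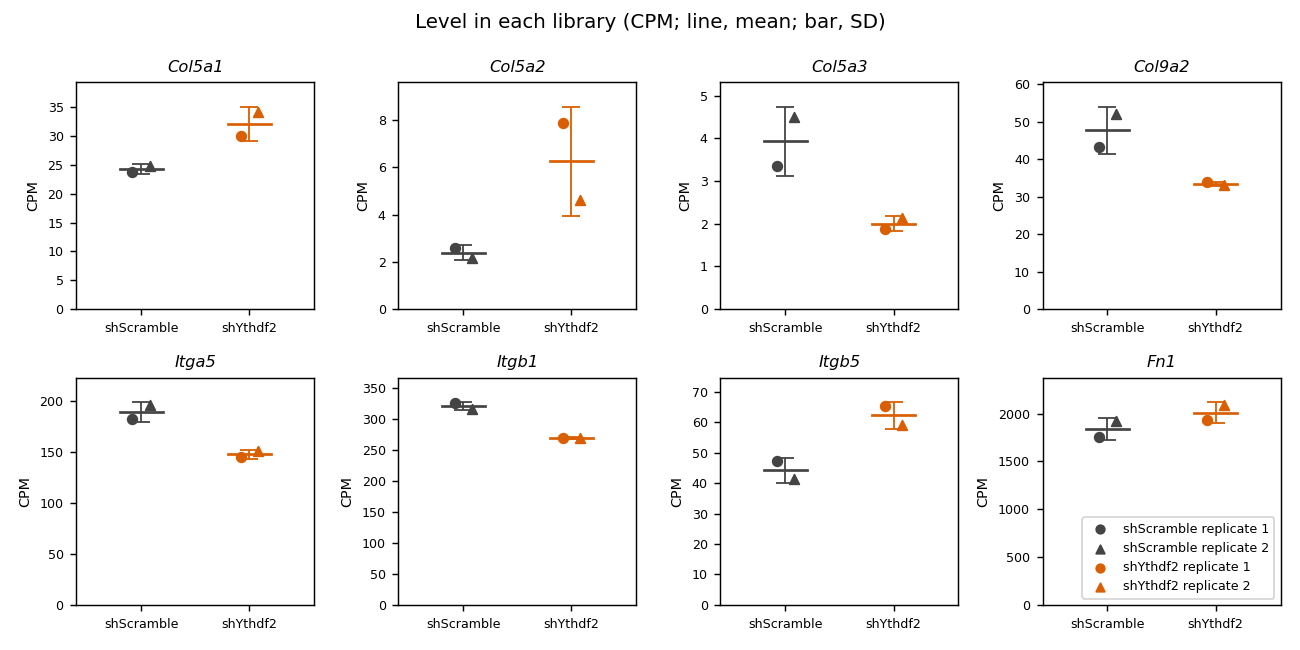
Level in CPM of Col5a1, Col5a2, Col5a3, Col9a2, Itga5, Itgb1, Itgb5 and Fn1 in each library, on linear axes from 0. Circles are replicate 1, triangles replicate 2, lines the group mean and bars the SD of 2 libraries. In Col5a2 the shYthdf2 replicates stand at 7.90 and 4.61 CPM, whereas those of Itgb1 lie close together at 269 and 270 CPM.

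None of the 18 tested integrins was called in edgeR. At an unadjusted p under 0.05 the counts were 2 higher and 4 lower. This was 33.3% together, against 20.8% of all genes (11% higher and 9.8% lower). Among the 30 tested collagens the share was 36.7%, with 6 higher and 5 lower, and among the 11 laminin chains it was 0. The most abundant integrin subunit was beta1. Itgb1 made up 77.9% and 79% of the summed level of beta subunits in shScramble and 71.8% and 71.9% in shYthdf2. It had 326 and 317 CPM in shScramble and 269 and 270 CPM in shYthdf2, a log2 fold change of -0.25 (SE 0.10, interval -0.47 to -0.03, adjusted p = 0.18) with little spread within a group. Itgb5, which pairs with alphaV to bind vitronectin, had 47.1 and 41.4 against 65.3 and 59.2 CPM (0.49, SE 0.12, interval 0.22 to 0.77, adjusted p = 0.058, and 0.0141 in DESeq2). Itgb3, another partner of alphaV, had 16.5 and 25.3 against 10.6 and 15.3 CPM (-0.69, SE 0.24, adjusted p = 0.14). The groups did not overlap for any of the 3 subunits, with shYthdf2 above shScramble in Itgb5 and below it in Itgb1 and Itgb3. Itgav, their shared alpha partner, overlapped between groups at 57.1 and 68.8 against 63.9 and 79.8 CPM (0.19, interval -0.13 to 0.51, adjusted p = 0.50). Vtn, the classical ligand of these alphaV receptors, had no reads.

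Itga5 and Itga6 were the most abundant alpha subunits. Itga5, on chromosome 15 (mm10, 103344286 to 103366791, minus strand), had 182 and 196 CPM in shScramble and 145 and 151 CPM in shYthdf2, without overlap (log2 fold change -0.36, SE 0.10, interval -0.59 to -0.13, adjusted p = 0.088, and 0.0297 in DESeq2). Per length, Fn1 stood at 5.09 and 5.18 times the level of its receptor subunit Itga5 in shScramble and at 7.03 and 7.29 times in shYthdf2. Itga6 had 217 and 229 CPM in shScramble and 173 and 214 CPM in shYthdf2 (-0.20, interval -0.47 to 0.07, adjusted p = 0.39), and the 2 shYthdf2 libraries differed more from each other than the nearer one did from shScramble. Itga3, a second laminin receptor subunit, overlapped fully at 85.9 and 105 against 84 and 108 CPM (0.00, interval -0.32 to 0.33), with a sign that turned with upper quartile scaling. The third, Itga7, known from muscle, had 44 and 55 reads against 21 and 31 (-0.995, interval -2.02 to 0.02, adjusted p = 0.25).

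The collagen-binding alpha subunits were low. Itga1 had 61 and 44 reads in shScramble and 116 and 115 in shYthdf2, or 1.69 and 1.40 against 3.39 and 3.21 CPM, with no overlap (log2 fold change 1.09, SE 0.32, interval 0.37 to 1.82, adjusted p = 0.094). Itga10, the most abundant of them per length, overlapped between groups (-0.12, interval -0.80 to 0.55), while Itga2 and Itga11 had at most 8 reads. Itga9 had 46.6 and 40.5 against 33.8 and 44.7 CPM (-0.15, interval -0.50 to 0.20). Itgal, an integrin subunit of leukocytes, had 5.80 and 5.62 against 2.98 and 4.19 CPM (-0.67, SE 0.27, adjusted p = 0.20), whereas its partner Itgb2 had 6 and 8 reads in shScramble and 24 and 7 in shYthdf2.

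Matrix and receptor genes were then compared as groups. The summed level of the 61 matrix genes was 705 and 751 per-length units in shScramble and 712 and 752 in shYthdf2, a log2 ratio of 0.01 with overlapping groups. The sum of the 25 integrins was 207 and 215 units in shScramble and 181 and 197 in shYthdf2, a log2 ratio of -0.16, without overlap. No p was computed for these sums, because the smallest two-sided p of an exact permutation test here is 0.333. The largest terms were Fn1 at 31.1% of the matrix sum and Itgb1 at 35.2% of the integrin sum. Their own log2 fold changes were 0.13 for Fn1 and -0.25 for Itgb1, so the matrix sum did not follow Fn1. Neither subunit type overlapped between groups. Alpha subunits summed to 108.4 and 118 against 91.3 and 107.6 units, a margin much smaller than the gap within either group. Beta subunits summed to 98.3 and 97.1 against 89.4 and 89.7 units. Lack of overlap was not particular to integrins. It also held for laminin alpha, beta and gamma chains, collagen IV and fibrillar collagens (log2 ratios 0.09, 0.2, -0.06, 0.25 and 0.26). The sum of nidogens, perlecan and agrin overlapped (-0.08). Counted by gene, 29 of 46 tested matrix genes had a positive log2 fold change (median 0.12), as had 6 of 18 integrins (median -0.10). Over all 18341 genes tested, 9213 were positive (median 0.002). Split further, the median was 0.15 over 30 collagens, 0.12 over 11 laminins and -0.09 over 5 other matrix genes. The median over collagens differed between pairs of the same replicate number, 0.33 for the first and -0.03 for the second. It was 0.21 and -0.03 over laminins, -0.12 and 0.003 over other matrix genes, and 0.16 and -0.01 over all matrix genes. Over integrins it was -0.21 and -0.065, and over all genes tested 0.01 and -0.006. The difference between matrix and integrin genes was not tested.

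**Figure D4:**
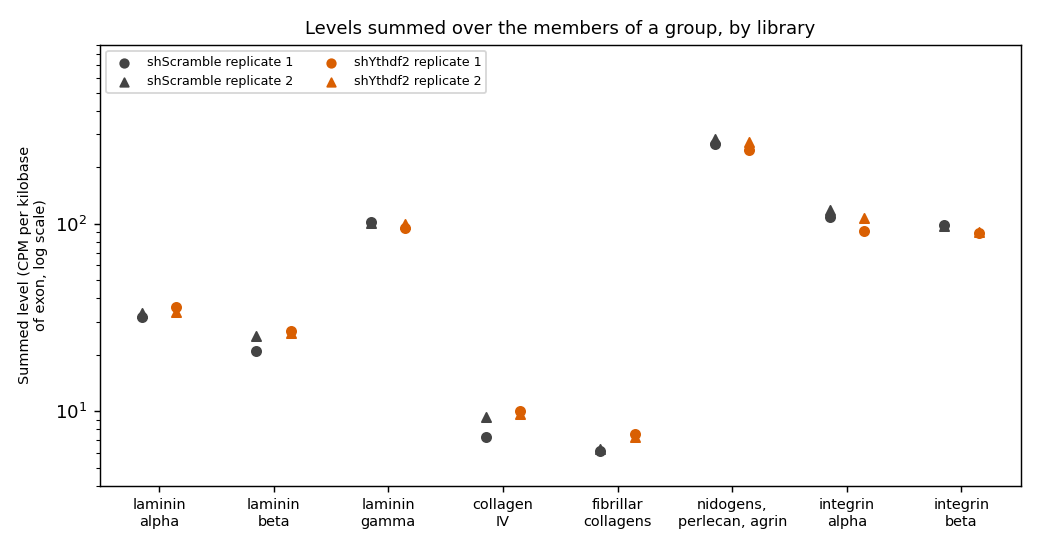
Levels summed over the genes of a group in each library, as CPM per kilobase of exon on a log axis. Grey is shScramble, orange shYthdf2, circles replicate 1 and triangles replicate 2. The shScramble and shYthdf2 values lie close together throughout, but only those of nidogens, perlecan and agrin overlap. The beta integrins, at 98.3 and 97.1 against 89.4 and 89.7, show the least spread within a group.

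Genes that process the matrix or act beside integrins were examined from 5 lists. Of 27 tested genes of collagen processing and cross-linking, 1 rose and 1 fell (7.41%, against 3.91% of all genes). Pcolce, an enhancer of procollagen cleavage, rose from 79.7 and 76.2 CPM to 134 and 130 CPM (log2 fold change 0.76, SE 0.10, adjusted p = 0.0069). Loxl2, a lysyl oxidase that cross-links collagen, fell from 3.17 and 7.05 CPM to 1.02 and 1.57 CPM (log2 fold change -1.97, SE 0.43, adjusted p = 0.038). At an unadjusted p under 0.05, 5 genes of this list were higher and 5 lower (37%, against 20.8% of all genes). Its median log2 fold change was -0.01.

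Among matrix receptors other than integrins, listed together with proteins that associate with integrins, 3 of 11 rose and 0 fell, where 3.91% of all genes were called. At an unadjusted p under 0.05, 4 were higher and 1 lower (45.5%, against 20.8% of all genes), and the median log2 fold change was 0.06. Sdc4 (syndecan-4), which binds fibronectin beside alpha5 beta1, stood at 30.6 and 29.1 CPM in shScramble and 102 and 55.2 CPM in shYthdf2 (1.40, SE 0.23, adjusted p = 0.016). Ddr1, a receptor tyrosine kinase for collagen, had 13.9 and 12.2 against 20.4 and 25.2 CPM (0.80, adjusted p = 0.040). Cd151, a tetraspanin that associates with laminin-binding integrins, had 38.5 and 44 against 58.7 and 61.5 CPM (0.54, adjusted p = 0.041). All 3 showed no overlap between groups, and in Sdc4 as in Col5a2 shYthdf2 replicate 1 was the higher library.

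Of 28 integrin adhesion genes, which encode actin linkers, kinases and other signalling proteins, 3 were higher and 6 lower at an unadjusted p under 0.05. Together this was 32.1%, against 20.8% of all genes, and the median log2 fold change was -0.12. Of 22 matrix proteases and inhibitors 2 fell and 0 rose (9.09%, against 3.91% of all genes). At an unadjusted p under 0.05, 6 were higher and 3 lower (40.9%, against 20.8% of all genes). Mmp2, a gelatinase that also cleaves collagen IV, fell from 27.5 and 32.4 to 19.5 and 15.4 CPM (-0.78, adjusted p = 0.039), and Reck, a membrane-anchored inhibitor of such proteases, from 14.3 and 16.9 to 6.52 and 7.88 CPM (-1.11, adjusted p = 0.021). Of 24 other matrix proteins 1 rose and 0 fell (4.17%), with 2 higher and 2 lower at an unadjusted p under 0.05 (16.7%). Vcan (versican), a large proteoglycan that binds hyaluronan, rose from 21.4 and 22.1 to 48.9 and 65.5 CPM (1.40, SE 0.16, adjusted p = 0.0038).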

How the data were processed

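Poly(A) RNA of 2 shScramble and 2 shYthdf2 libraries was measured, grouped and numbered by their titles. The authors deposited raw read counts per gene, made per the file headers with featureCounts 2.0.3 over RefSeq exons of mm10, unstranded although the libraries were stranded, and counting reads rather than pairs. The submitters' processing notes name fastp 0.19.4, HISAT2 2.2.1 and DESeq2 1.40.2. Unstranded counting cannot assign reads on exon bases shared with an antisense gene. Because reads over more than one gene were not counted, this can lower the levels of such genes. More than 5% of exon bases were shared with another gene in 10 of the 86 genes, Agrn, Col4a1, Nid2, Itga7 and Itgb4 among them. Reads placed at several positions were not counted by default, which can lower Col11a2, Col16a1 and Col4a6, listed also on extra contigs. 0 other columns of samples were present.

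Counts were fitted over all genes with edgeR 4.0.16 in R 4.3.3 (quasi-likelihood F test, two-sided, TMM scaling, filterByExpr with a minimum count of 10 and total of 15, Benjamini-Hochberg adjustment over 18341 genes, no covariate), and tested on simulated data first. Intervals are 95%. Values per pair of the same replicate number are log2 CPM with a prior count of 2, and fold changes come from the fit. CPM and per-length values use TMM-scaled totals and the deposited gene length. The totals were 36422510, 31113006, 34812976 and 35305720 reads, the coefficient of biological variation was 15.8%, and a limit of 3 reads covers counting error only. Alternatives were other scalings and filters, DESeq2 1.42.0, limma-voom (limma 3.58.1), DESeq2 with the study's criteria, halved counts, a replicate block and leaving out each library.

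The genes, lists and tests were chosen with earlier results of these data known. Genes were named when called, when their absolute log2 fold change was at least 1 with a mean of at least 1 CPM, when most abundant in their role, or by function in basement membrane and ESC adhesion, which gave 28 genes. Another 12 given with fold changes (those with an unadjusted p under 0.05, Lama3, Lamb2, Lamb3, Itga3 and Itga7), and genes given by reads alone, were chosen after their values were seen. From the lists of other genes, those with an adjusted p under 0.05 were named. Single results of 2 genes are not reported here.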

Additional observations from a re-analysis of the deposited data

How the results depend on the processing

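The count of tested genes called higher, 1 (Col5a2), was 0 with upper quartile scaling, library totals and limma-voom, 2 with DESeq2 (with Itgb5), 3 by the study's criteria in DESeq2 and 4 without the low-count filter (Col5a2, Itgb5, Itga1 and Col6a4). Leaving out 1 library gave 0 to 3. The count called lower, 0, was 2 with DESeq2 (Itga5 and Col9a2), 4 without the low-count filter (with Itgb3 and Col13a1) and 0 to 6 when 1 library was left out. It was 3 without shScramble replicate 1 (Itgb3, Col13a1 and Col9a2), 1 without shYthdf2 replicate 1 (Col9a2) and 6 without shYthdf2 replicate 2, which added Itga5, Hspg2 and Itga6. With 1 library left in a group, that library is assumed to vary like those of the other group. Over all genes, the calls higher and lower were 445 and 273, and came to 808 and 615 with DESeq2, 1095 and 843 without the low-count filter, and 1175 and 1113 without shYthdf2 replicate 2.

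The groups share replicate numbers, but the labels do not say what a number stands for. Deviations of same-numbered libraries from their group means correlated at 0.23 over 18341 genes, which with 2 pairs does not establish a pairing. With the replicate block 8 genes were called higher (Col5a2, Col5a1, Col4a1, Col6a4, Col22a1, Lamb2, Itga1 and Itgb5) and 8 lower (Col1a1, Col5a3, Col9a2, Col13a1, Itga5, Itgal, Itgb1 and Itgb3), beside 1851 and 1674 over all genes. For the sums, the mean log2 ratio of same-numbered pairs was 0.01 for matrix genes and -0.16 for integrins. In a balanced design this mean always equals the difference of group means on the log2 scale. It therefore cannot show whether pairing matters for the sums.

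The matrix sum ranged from -0.04 to 0.05 and the integrin sum from -0.22 to -0.10 over all alternatives. Of 38 genes named with fold changes, 31 kept the sign of their log2 fold change under every alternative. Col18a1 turned to -0.01 with upper quartile scaling, and Itga3 to -0.01 with that scaling and to 0.00 with a filter of at least 1 CPM. Leaving out 1 library at a time gave log2 fold changes from -0.06 to 0.08 for Col18a1, -0.12 to 0.34 for Col4a2, -0.34 to 0.05 for Hspg2, -0.40 to 0.11 for Itga10, -0.19 to 0.17 for Itga3, -0.37 to 0.04 for Itga9 and -0.31 to 0.20 for Lama1. The cause of these changes was not tested. Genes under 10 reads could not be compared at this depth.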
